A study of Mus musculus with 33 samples.

Results

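The 9 genes of the B lineage that the nCounter panel measures were followed through mouse bone marrow after 2 small molecules. They are Igll1, Rag1, Pax5, Cd79a, Cd79b, Blnk, Blk, Btk and Mme, 9 of the 750 endogenous genes on the panel, chosen by name. Earlier results of these data had shown low Igll1 in 2 groups, venetoclax mice on day 7 and ruxolitinib mice on day 3, so its values in those comparisons, and in any contrast that contains them, are given as a description with no p-value. The bone marrow came from 33 female C57BL/6 mice aged 6 to 8 weeks, with no transgene and no irradiation named in the sample labels. Venetoclax inhibits BCL2 and ruxolitinib inhibits the kinases JAK1 and JAK2. Both were given by oral gavage for 2 days, venetoclax once daily and ruxolitinib 2 times daily; the labels put the doses at 100 and 180 mg/ml, and the study's methods give the same figures in mg/kg. Marrow was taken 1, 3 or 7 days after treatment from 3 mice per drug and day, from 2 mice given the vehicle of that drug, and from 3 untreated mice, 13 groups in all.

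The nCounter assay counts colour-coded probes bound to their target RNA, 1 lane per mouse, with no amplification. Counts of the endogenous probes summed to between 18056 and 466096 per lane, with a median of 158944. The background of a lane, set from its 8 negative control probes at 2 SD over their mean, was 1.83 to 7.85 counts. Each day was 1 run of 11 lanes with 1 untreated mouse in it, so day and run cannot be told apart, and drugs were compared with the vehicle of the same run. S100a8, a neutrophil gene, took 32.5% to 68.8% of the endogenous counts of a lane, and all 7 neutrophil markers on the panel were above background in all 33 lanes, so the markers of the main cell type of marrow were present. Values below are normalised counts, that is, counts divided by a lane factor from 11 housekeeping probes. There were 2 lanes that were shallow: day-1 venetoclax mouse 1 (18056 counts) and day-3 ruxolitinib mouse 1 (26881 counts).

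B cells are made in the bone marrow in ordered steps. In pro-B cells the RAG1 and RAG2 recombinase cuts and joins the immunoglobulin heavy chain gene, while the transcription factor PAX5 holds the cells to the B lineage. The new heavy chain pairs with the surrogate light chain, of which Igll1 encodes one part, to form the pre-B cell receptor. That receptor and the later B cell receptor signal through the CD79A and CD79B chains, the SRC family kinase BLK, the adaptor BLNK and the kinase BTK. In mice these steps also depend on interleukin-7, whose receptor signals through JAK1 and JAK3.

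The promoters of the members that the results turn on are shown for their E-boxes, the short motif bound by E2A and related B cell factors. Each sequence is the 250 bases before a transcript start, from RefSeq on mouse build GRCm38.p6, on the minus strand, which is the strand of each of these genes, and written 5′ to 3′ with every E-box (CANNTG) in capitals. Against vehicle, Rag1 and Pax5 were low after ruxolitinib on all 3 days and Igll1 on days 1 and 3. The sequences of Igll1, Rag1 and Pax5 are at chr16:16863986-16864235, chr2:101649533-101649782 and chr4:44710695-44710944, and Btk, at chrX:134583141-134583390, is the member that varied least. The sequence of Btk lies inside the annotated span of its gene, which ends at 134583628, and the other 3 lie just outside theirs.
Igll1: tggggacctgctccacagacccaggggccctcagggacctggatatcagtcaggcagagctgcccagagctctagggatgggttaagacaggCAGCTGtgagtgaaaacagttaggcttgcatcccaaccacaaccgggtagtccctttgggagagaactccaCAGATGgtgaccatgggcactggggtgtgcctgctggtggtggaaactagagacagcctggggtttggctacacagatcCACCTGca
Rag1: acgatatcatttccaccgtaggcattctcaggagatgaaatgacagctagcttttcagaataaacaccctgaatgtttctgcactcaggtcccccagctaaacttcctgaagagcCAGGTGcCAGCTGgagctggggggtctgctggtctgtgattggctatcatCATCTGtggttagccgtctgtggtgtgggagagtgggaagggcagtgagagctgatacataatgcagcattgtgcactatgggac
Pax5: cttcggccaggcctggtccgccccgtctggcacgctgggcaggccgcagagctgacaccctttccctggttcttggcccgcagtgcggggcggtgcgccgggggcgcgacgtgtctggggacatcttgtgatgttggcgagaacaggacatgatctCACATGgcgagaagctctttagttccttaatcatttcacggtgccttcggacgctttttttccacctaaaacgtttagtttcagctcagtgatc
Btk: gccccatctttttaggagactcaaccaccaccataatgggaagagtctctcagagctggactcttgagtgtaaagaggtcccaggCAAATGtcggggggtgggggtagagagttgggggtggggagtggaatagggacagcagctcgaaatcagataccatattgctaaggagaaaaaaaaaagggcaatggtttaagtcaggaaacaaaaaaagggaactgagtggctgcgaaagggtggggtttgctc
Igll1 and Rag1 each held 3 E-boxes, and Pax5 and Btk each held 1. A table of promoters covered 7 of the 9 members, with none used here for Cd79b and Blk. Counted by gene, 6 of those 7 held an E-box. Mme had several promoters there, and they held no E-box. Of all 32851 promoters, which belong to 27025 genes, 66.2% held an E-box. That share counts promoters and not genes, so the count of members cannot be set against it. The STAT motif (TTCNNNGAA, in 7.02% of all promoters) was not found in the promoters printed here. A promoter of Mme, which is not printed, held it 166 bases before the start. Both motifs read the same on both strands, and no 2 matches overlapped. A match is a description of the letters only.

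Mme, which encodes the surface peptidase CD10, reached no more than 5 counts and was above background in 0 of 33 lanes, so it was not tested. The other 8 members were among the 655 genes tested. Pax5 and Btk were above background in all 33 lanes, Igll1 and Cd79b in 32, Rag1 in 31, Blnk and Blk in 30, and Cd79a in 25. These 8 members were kept by a filter that asks for counts above background in at least 2 lanes.

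Igll1 stood low in 3 of the 6 drug groups. After ruxolitinib it was low on days 1 and 3 and not on day 7, and after venetoclax it was low on day 7 alone. On day 1 the vehicle mice of ruxolitinib had 88.8 and 81.5 normalised counts of Igll1, and the ruxolitinib mice had 46.4, 50.3 and 32.8. All 3 ruxolitinib mice were below both vehicle mice. The log2 fold change was −0.97 (SE 0.29), with an adjusted p of 0.0693 in edgeR's quasi-likelihood test, so the call was not made. On day 3 vehicle mice had 104.1 and 107.0, and ruxolitinib mice had 33, 38.4 and 8.68. The groups did not overlap, and the mouse at 33 is the shallow lane, where 6 counts were below background. The log2 fold change was −1.93 (SE 0.33), a difference known when the gene was chosen. By day 7 the order had turned: vehicle mice had 128.8 and 133.2, and ruxolitinib mice had 183.7, 138.9 and 167.7, all above both vehicle mice. The log2 fold change was then 0.32 (95% interval −0.29 to 0.92, adjusted p = 0.999, edgeR). Intervals here and below are for the single gene and are not adjusted for the number of genes.

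After venetoclax, Igll1 on day 1 stood at 99.8, 83.5 and 65.8 in treated mice and at 92.8 and 69.3 in vehicle mice, and the groups overlapped. On day 3 venetoclax mice had 136.7, 148.3 and 120.3 against 70.3 and 104.1 in vehicle mice. All 3 treated mice were higher, with a log2 fold change of 0.61 (SE 0.29) and an adjusted p of 0.453 (edgeR). On day 7 venetoclax mice had 52.1, 64.0 and 40.9, whereas vehicle mice had 166.8 and 112.4. The groups were apart by a log2 fold change of −1.54 (SE 0.31), which was known as well. Beside it, the 9 T cell markers summed to 47.8 to 74.7 on day 7, against 91.8 to 148.9 in vehicle mice. On day 3 they summed to 45.3 to 59.7 against 88.4 to 119.9. On both days 9 of 9 genes were below 0, where 50.4% of all tested genes were on day 7 and 44.9% on day 3. Many of these markers were near background. Above it were 1 to 7 of the 9 in day-7 venetoclax mice, against 7 to 9 in vehicle mice, and 4 to 6 against 6 to 8 on day 3. Over the mean of 3 days 2 of these 9, Cd3d and Cd8a, fell after venetoclax (edgeR, adjusted p = 0.0153 and 0.0139), where 2.9% of all tested genes were called, and both calls were lost with limma and with untreated mice as control. Each call held in 11 of 15 fits that left out a mouse. The sums of the other marker lists overlapped on day 7, while 11 of the 13 mature B cell markers had a log2 fold change below 0, with a median of −0.33 beside −0.01 over all tested genes. The part of these lists in the result was not tested.

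Across the 13 groups the mean of Igll1 ran from 26.7 ± 15.8 (SD, n = 3) on day 3 after ruxolitinib to 163 ± 22.7 (n = 3) on day 7 after ruxolitinib. Above the lowest group came ruxolitinib day 1 at 43.2 ± 9.20 (n = 3) and venetoclax day 7 at 52.4 ± 11.6 (n = 3). The mice of these 3 groups lay below the mice of the other 10 groups without overlap, from 8.68 to 64.0 against 65.8 to 183.7. The low values of ruxolitinib day 3 and venetoclax day 7 were known when the gene was chosen. The 3 groups were picked after sorting by the mean and come from different runs. These 3 overlapped from one to the next in the order of the means, as did the next 5 groups, from 81.0 to 88.3 in the mean with the untreated mice at the top. The untreated mice had 83.2, 67.2 and 114.6. The vehicle mice of ruxolitinib on day 3 followed at 106 ± 2.09 (n = 2), overlapping the untreated mice and lying below the next group, which began at 128.8. Means of the highest 4 groups, 131 to 163, each overlapping the next, were venetoclax day 3 and 3 of the 4 groups of the day-7 run.

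**Figure D1:**
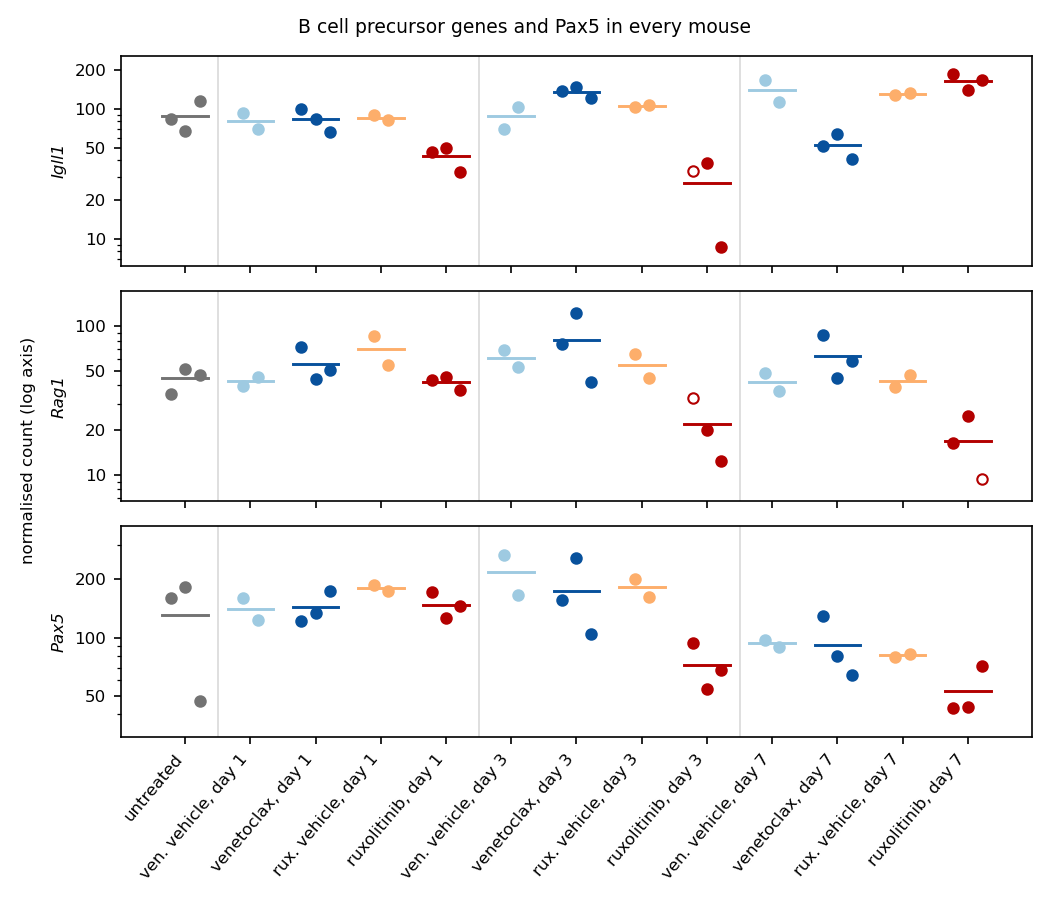
Normalised counts of Igll1, Rag1 and Pax5 on a log axis, one point per mouse in each of the 13 groups, with the group mean as a line. Open points are counts not above background. The 3 ruxolitinib mice lie below both vehicle mice on days 1 and 3 in all 3 genes, and on day 7 in Rag1 and Pax5 while Igll1 lies above them.

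Rag1 and Pax5 fell after ruxolitinib, over the 3 days as a whole. Rag1, the recombinase gene, had a log2 fold change of −1.11 (SE 0.21) over the mean of 3 days, with an adjusted p of 0.00401, and Pax5 one of −0.83 (SE 0.21), with an adjusted p of 0.0264 (edgeR). These 2 were called among the 7 members other than Igll1, where 1.22% of all tested genes were called. Igll1 in the same contrast was at −0.86 (SE 0.18), a description since it contains the day-3 result. In Rag1 and Pax5 the ruxolitinib mice were below both vehicle mice on each of the 3 days, a pattern that 7 of the 655 tested genes (1.07%) had. The fold was 0.465 for Rag1 and 0.564 for Pax5.

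Rag1 in the vehicle mice of ruxolitinib was 86.1 and 55.1 on day 1, against 43.3, 45.8 and 37.2 in ruxolitinib mice. Day 3 gave 64.9 and 44.6 in vehicle mice, against 33, 20.2 and 12.4. Day 7 gave 39.1 and 47.1, against 16.4, 25 and 9.32. The ruxolitinib mice were the lower group each time, and the lowest of all 33 mice was on day 7, where 3 counts were below background. The day-3 ruxolitinib mouse at 33 is the shallow lane, where 6 counts were also below background. The log2 fold changes by day were −0.72 (SE 0.31), −1.51 (SE 0.39) and −1.09 (SE 0.36), and none passed the test alone, with adjusted p-values of 0.312, 0.0643 and 0.446 (edgeR). The untreated mice, at 35.2, 51.5 and 47.2, lay above all 6 ruxolitinib mice of days 3 and 7. On day 1 all 3 ruxolitinib mice lay above the untreated mouse of that run, at 35.2. The day-1 value ran from −0.80 to −0.14 over the alternatives, and from −1.03 to −0.39 with 1 mouse left out. With untreated mice as control the mean over 3 days was no longer called (adjusted p = 0.0936, edgeR), nor was it with limma.

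Pax5 stood at 186.8 and 174.9 in vehicle mice on day 1, and at 171.3, 126.7 and 146.0 in ruxolitinib mice. On day 3 the vehicle mice had 200.8 and 163.0, and the ruxolitinib mice had 93.6, 54.2 and 68.2. On day 7 the vehicle mice had 79.7 and 82.0, and the ruxolitinib mice had 43.1, 43.8 and 71.4. The gap was widest on day 3, with log2 fold changes of −0.29, −1.46 (SE 0.37) and −0.73 by day. Against the 3 untreated mice, 1 from each run, the day-1 value was 0.11, while the untreated mouse of the day-1 run, at 160.0, lay above 2 of the 3 ruxolitinib mice. No single day was called, the lowest adjusted p being 0.0643 on day 3 (edgeR). The day-7 run was low in Pax5 with no drug as well, at 79.7 to 96.9 in the 4 vehicle mice and 47.2 in the untreated mouse, against 160.0 and 183.8 in the untreated mice of the other runs. The call for Pax5 was lost under the replicate block (adjusted p = 0.137, edgeR), with limma, with scaling by the total count or all housekeeping probes, with untreated mice as control and without any of 11 of the 15 mice, and it held without day-1 ruxolitinib mouse 1, day-3 vehicle mouse 2, day-3 ruxolitinib mouse 1 or day-7 ruxolitinib mouse 3.

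In bulk marrow, fewer cells of a type and less RNA per cell cannot be told apart. Other marker lists gave these values beside the fall of Rag1 and Pax5. The summed level of the 13 mature B cell markers ran from 567 to 648 in day-3 ruxolitinib mice against 778 to 1003 in vehicle mice, with 4 to 12 of them above background, and from 427 to 547 against 619 to 697 on day 7. On day 1 it was 914 to 1032 against 915 to 921, so the mature markers stood apart on days 3 and 7 and overlapped on day 1. A sum follows the most abundant genes of a list, so the number of its genes with a log2 fold change below 0 is given beside it. For the mature B cell markers that was 5, 11 and 11 of 13 on days 1, 3 and 7. The share of all tested genes below 0 on those days was 40.9%, 48.2% and 48.1%. The 4 markers of dividing cells summed to 527 to 643 against 702 to 749 on day 1, with 2 of 4 genes below 0, to 810 to 980 against 665 to 720 on day 3, with 1 below 0, and overlapped on day 7 at 668 to 923 against 727 to 736. The 7 neutrophil markers summed to 76770 to 89241 against 94986 to 101811 on day 1, while 5 of the 7 genes were above 0 with a median log2 fold change of 0.58, so sum and genes pointed opposite ways. Their sums overlapped on days 3 and 7. The 9 T cell markers summed to 84.8 to 95.2 against 79.1 to 81.5 on day 1, with 3 of 9 genes below 0, and overlapped on days 3 and 7, at 65.7 to 132 against 88.2 to 120 on day 3. The 6 NK cell markers summed to 59.6 to 65.6 against 75.1 to 89.7 on day 1, with 4 of 6 genes below 0, and overlapped on days 3 and 7. Stromal markers, 6 genes, summed to 265 to 335 against 111 to 116 on day 1, with 0 of 6 genes below 0, and overlapped on days 3 and 7. The 4 plasma cell markers overlapped on days 1 and 3 and summed to 137 to 180.2 against 191 to 201 on day 7, with 4 of 4 genes below 0. The part of these lists in the result was not tested. Without the 2 shallow lanes the mean over 3 days was −1.14 for Rag1 (adjusted p = 0.00355) and −0.87 for Pax5 (adjusted p = 0.0239, edgeR).

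Venetoclax left Rag1 and Pax5 uncalled, with 0 of the 7 members other than Igll1 past the threshold over the mean of 3 days in edgeR, limma or DESeq2, 0 of them at an unadjusted p under 0.05 (9.16% of all tested genes were), and 2.9% of all tested genes called by edgeR. In venetoclax mice Rag1 was 72.1, 44.2 and 50.9, then 75.7, 123.6 and 42.5, then 86.9, 45.1 and 58.4, taking days 1, 3 and 7 in order. Its vehicle mice had 39.9 and 45.4, then 69.2 and 53.0, then 48.4 and 36.5. The groups overlapped on every day, and the mean over 3 days was 0.38 (95% interval −0.04 to 0.81, adjusted p = 0.584, edgeR). Pax5 overlapped on every day as well. Rag1 therefore had values of opposite sign after the 2 drugs, which differed by 1.91 (SE 0.51) on day 3 and 1.60 (SE 0.51) on day 7 on the log2 scale, with adjusted p-values of 0.22 and 0.459 (edgeR), so this difference was not called.

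The signalling chains varied less evenly by drug and day. Cd79b, whose product carries the signal of both receptors, was 167.6, 171.9 and 155.3 in ruxolitinib mice on day 1, against 110.8 and 89.0 in vehicle mice. In venetoclax mice on that day it was 66.6, 67.9 and 33.9, against 115.4 and 97.2. The treated mice were thus all above the vehicle mice after ruxolitinib and all below them after venetoclax, with log2 fold changes of 0.73 (SE 0.38, adjusted p = 0.421) and −0.90 (SE 0.43, adjusted p = 0.444). Neither passed the test in edgeR. On day 7 the ruxolitinib mice had 91.0, 146.5 and 114.9 against 231.1 and 239.8 in vehicle mice, a log2 fold change of −0.99 (SE 0.38, adjusted p = 0.789, edgeR), while venetoclax mice had 375.3, 256.1 and 237.0 against 236.8 and 238.7. Against the 3 untreated mice, 1 from each run, the day-7 value after ruxolitinib was 0.14, while the untreated mouse of the same run, at 222.5, lay above all 3 ruxolitinib mice. On day 3 the groups of ruxolitinib overlapped, at 82.6, 122.7 and 63.2 against 83.3 and 154.1. Venetoclax mice on day 3 had 121.9, 106.1 and 117.4 against 87.6 and 101.2, all above the vehicle mice, the reverse of day 1.

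Cd79b also differed by run in mice given no drug. The 4 vehicle mice of the day-7 run had 231.1 to 239.8, above the 83.3 to 154.1 of the other 8 vehicle mice, and the untreated mice had 16, 92.6 and 222.5 in the runs of days 1, 3 and 7. The first of these, 5 counts, was not above background. The untreated mice thus spanned more normalised counts of Cd79b than the mice of any drug group did.

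Cd79a, the partner chain, was scarce, between 2.48 and 17.4 normalised counts. On day 7 the ruxolitinib mice had 4.51, 5.58 and 3.11 against 11.3 and 8.20 in vehicle mice, with no overlap and a log2 fold change of −1.08 (SE 0.38, adjusted p = 0.663, edgeR). Venetoclax mice on that day had 17.4, 14.2 and 7.81 against 3.91 and 8.43, with an overlap and a log2 fold change of 1.22 (SE 0.46, adjusted p = 0.73, edgeR). That value ran from 0.36 to 1.77 with 1 mouse left out and from 0.09 to 1.55 over the alternatives. The 2 drugs differed by 2.30 (SE 0.60) on the log2 scale on day 7, with an adjusted p of 0.122 (edgeR), so the difference was not called. Counts of 1 to 6 that were not above background lie behind 8 of the 33 lanes of this gene.

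Blnk, the adaptor, was low after venetoclax on day 1. The venetoclax mice had 5.55, 16.2 and 12.7 against 41 and 24.7 in vehicle mice. All 3 were below, and the lowest of them is the shallow lane with 1 count. The log2 fold change was −1.19 (SE 0.51, adjusted p = 0.353, edgeR). On days 3 and 7 venetoclax mice were at 36.7 to 44.3 and 55.0 to 106, against 28.5 to 31.1 and 59.0 to 77.4 in vehicle mice, all above on day 3 and overlapping on day 7. After ruxolitinib Blnk overlapped on days 1 and 3 and was lower on day 7, at 36.1, 54.0 and 28 against 58.0 and 65.6. The untreated mice had 12.8, 33.6 and 80.9 by run, the same order as in Cd79b.

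The kinase Blk stood lower after ruxolitinib late. On day 7 ruxolitinib mice had 14.4, 7.93 and 6.21 against 19.5 and 18.4 in vehicle mice, without overlap. On day 3 they had 27.5, 9.10 and 13.6 against 22 and 23.5, where the highest is the shallow lane and the other 2 mice were below. The mean over 3 days was −0.65 (95% interval −1.09 to −0.21, adjusted p = 0.143, edgeR), and that of Cd79a was −0.70 (95% interval −1.19 to −0.21, adjusted p = 0.157, edgeR). Neither was called, and neither was called under any of the 13 alternatives or without any 1 mouse.

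Btk, the kinase of the same pathway that myeloid cells also use, was the steadiest member. All 33 mice lay between 99.4 and 185, a 1.87-fold range, where that of Igll1 was 21.2-fold. The furthest of its 6 log2 fold changes by drug and day was −0.17 on day 7 after venetoclax (95% interval −0.61 to 0.27, adjusted p = 0.999, edgeR). In that comparison the treated mice, at 116.4, 120.9 and 124.9, were nonetheless all below the vehicle mice at 125.4 and 151.7. The mean over 3 days after ruxolitinib was 0.00 (95% interval −0.24 to 0.25).

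**Figure D2:**
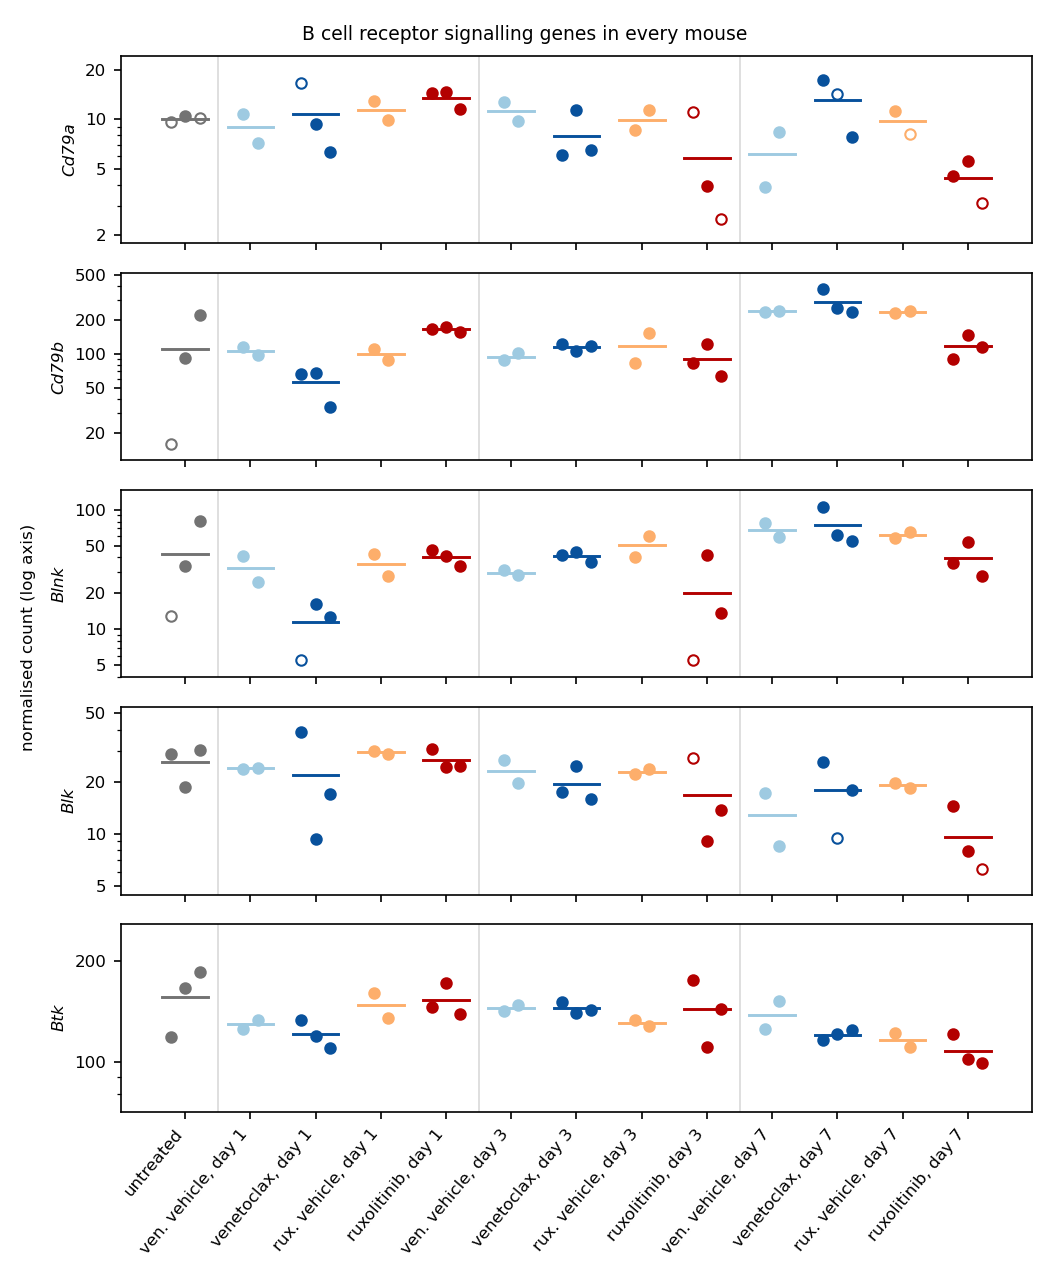
Normalised counts of Cd79a, Cd79b, Blnk, Blk and Btk on a log axis, one point per mouse in each of the 13 groups, with the group mean as a line. Open points are counts not above background. In Cd79b the 4 vehicle mice of day 7 stand at 231.1 to 239.8 and the 3 ruxolitinib mice of that day at 91.0 to 146.5, and Btk stays between 99.4 and 185 in all 33 mice.

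Counted over the members by groups that did not overlap, lower values after ruxolitinib were most frequent on day 7. On that day, 6 of the 7 members other than Igll1 had all ruxolitinib mice below both vehicle mice (Rag1, Pax5, Cd79a, Cd79b, Blnk and Blk), where 9.62% of all tested genes did, and Igll1 had them above, where 8.09% did. On day 3 it was 2 of the 7, Rag1 and Pax5, against 7.94%, and on day 1 the same 2, against 16.3%, with Cd79b above, against 27.6%. The day-3 count depends on the shallow lane, ruxolitinib mouse 1, where 2 counts of Cd79a and 5 of Blk were not above background. Without that lane Cd79a and Blk would also be apart on day 3. The other ruxolitinib mice had 3.96 and 2.48 of Cd79a, the latter not above background. The lower vehicle mouse had 8.57. The share of all tested genes without that lane was not counted. The low Igll1 of day 3 was known when the genes were chosen and is not counted. The median log2 fold change of the 7 members other than Igll1 by day was 0.05, −0.93 and −0.88, beside 0.13, 0.02 and 0.02 over all tested genes. Being genes of one lineage, the members share their cells and are not independent of each other.

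The 7 members other than Igll1 were not called on any single day after ruxolitinib. edgeR called 0 of these 7 on days 1, 3 and 7, where 2.75%, 0.153% and 0.153% of tested genes were called, and 1, 5 and 4 of them had an unadjusted p under 0.05, where 13.6%, 4.73% and 3.51% of tested genes did. The 0.153% of day 3, and that of day 7 after venetoclax below, is Igll1 itself, whose result was known, and not a share of other genes. limma and DESeq2 also called 0 of the 7 on each day. After venetoclax edgeR called 0 of the 7 on each day, where 0.153%, 0.0% and 0.153% of tested genes were called, with 2, 0 and 1 at an unadjusted p under 0.05, where 10.4%, 10.7% and 4.73% were, and limma and DESeq2 called 0. Of these 7, those whose venetoclax mice did not overlap the vehicle mice were 2 lower on day 1, Cd79b and Blnk, against 15.7% of tested genes, the same 2 higher on day 3, against 13%, and 1 lower on day 7, Btk, against 10.7%.

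**Figure D3:**
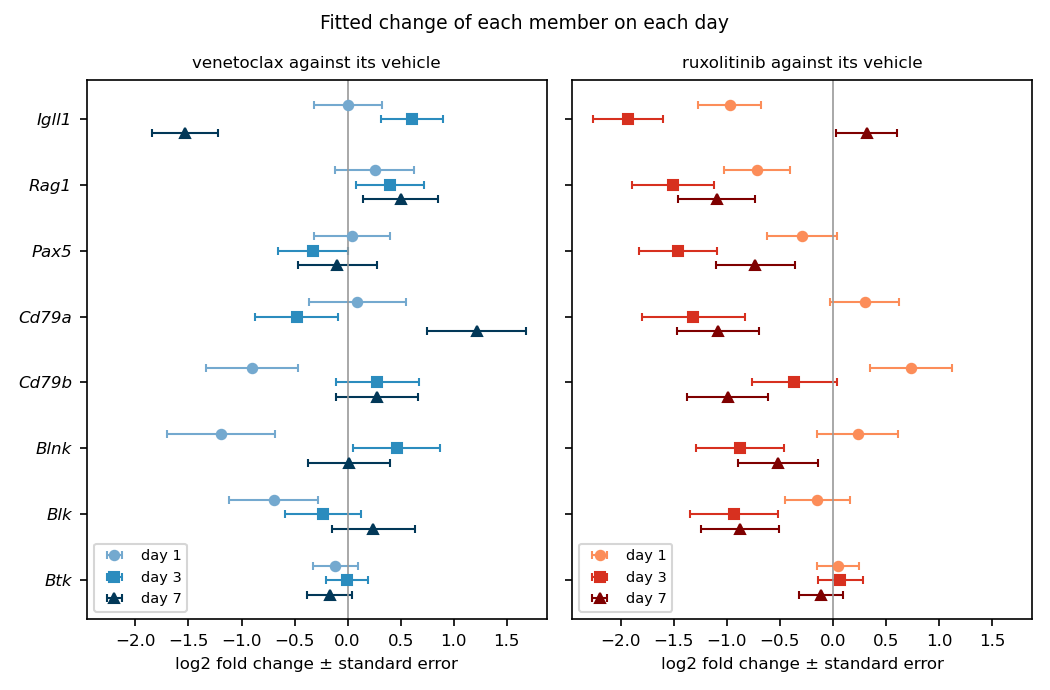
Log2 fold change of each of the 8 tested members against the vehicle of the same day, with the standard error as a bar, for venetoclax (left) and ruxolitinib (right) on days 1, 3 and 7. After ruxolitinib Rag1 lies at −0.72, −1.51 and −1.09 and Btk stays within 0.11 of 0, and Igll1 lies at −1.93 on day 3 and at 0.32 on day 7.

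**Figure D4:**
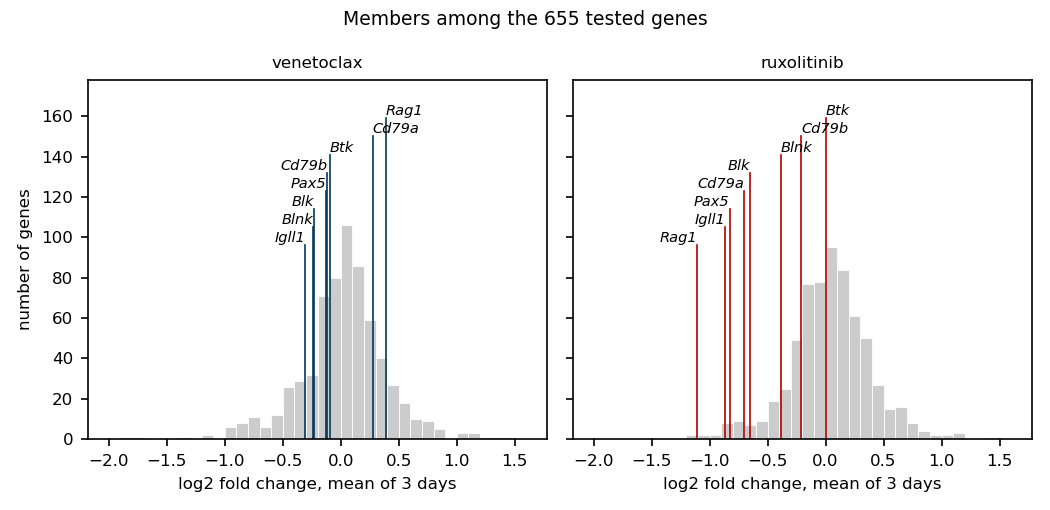
Distribution of the log2 fold change over the mean of 3 days for all 655 tested genes (grey bars, number of genes per 0.1), for venetoclax (left) and ruxolitinib (right), with the 8 tested members as labelled lines. After ruxolitinib Rag1 at −1.11, Igll1 at −0.86 and Pax5 at −0.83 lie in the left tail and Btk lies at 0.00, while after venetoclax the members lie between −0.31 and 0.38.

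Interleukin-7 and early lymphoid genes formed a list of 14 tested genes. After ruxolitinib 1 of the 14, Il7r, fell over the mean of 3 days and 0 rose, where 1.22% of all tested genes were called, with 6 of 14 log2 fold changes below 0 (43.8% of all tested genes) and a median of 0.08, beside 0.04 over all tested genes. Il7r encodes the chain that binds interleukin-7. Its log2 fold change was −0.77 (SE 0.17, adjusted p = 0.0105, edgeR). Vehicle mice had 165.7 and 139.0 on day 1, 181.2 and 127.3 on day 3 and 60.7 and 61.5 on day 7, and ruxolitinib mice had 90.4, 87.7 and 77.7, then 110.1, 64.9 and 38.4, then 59.0, 42.9 and 65.2. The groups were apart on days 1 and 3 and overlapped on day 7. Jak1 and Jak3, which signal below this receptor, were at 0.14 (SE 0.17, adjusted p = 0.796) and −0.12 (SE 0.15, adjusted p = 0.796), not called by edgeR. After venetoclax 0 of the 14 genes were called over the mean of 3 days, with 0 at an unadjusted p under 0.05. The Il7r call was lost with limma, also after background subtraction, and without day-3 vehicle mouse 1 (adjusted p = 0.0732, edgeR) or day-7 vehicle mouse 1 (adjusted p = 0.0638, edgeR). T cells also carry this receptor, and the 9 T cell markers had a median of −0.19 in the same contrast with 0 called and 0 at an unadjusted p under 0.05; their part was not tested.

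The partners of the B cell receptor, 21 tested genes such as Syk and Lyn, had a median near that of all genes after ruxolitinib when the 3 days were averaged. Over the mean of 3 days 0 of the 21 were called by edgeR, 3 had an unadjusted p under 0.05, 8 had a log2 fold change below 0, and their median was 0.02 beside 0.04 over all tested genes. On day 3 alone 13 of the 21 were below 0, where 48.2% of all tested genes were, with a median of −0.08 beside 0.02. Their sums that day stood apart, at 1732 to 1877 in ruxolitinib mice against 1955 to 2048 in vehicle mice. The sums overlapped on days 1 and 7, and the part of this list in the fall of Rag1 and Pax5 was not tested. Among the 13 mature B cell markers, some of which are also in the list of partners, Pou2af1, a coactivator of immunoglobulin gene transcription, fell after ruxolitinib over the mean of 3 days (−0.92, SE 0.23, adjusted p = 0.0264, edgeR). This call held under 9 of 13 alternatives, not with limma, the replicate block or untreated mice as control, and in 6 of 15 fits that left out a mouse. It was the 1 gene of 13 called, where 1.22% of all tested genes were, and 10 of 13 log2 fold changes were below 0, where 43.8% of all tested genes were. On day 1 the 1 call in this list went the other way: Tnfrsf13c, the receptor for the survival factor BAFF, rose after ruxolitinib (1.34, SE 0.38, adjusted p = 0.0473, edgeR), where 2.75% of all tested genes were called. This call was lost under 8 of 13 alternatives, limma and DESeq2 among them, and in 4 of 5 fits that left out a mouse. The ruxolitinib effect on day 7 was below that on day 1 for Tnfrsf13c (−2.80, SE 0.55, adjusted p = 0.00192) and for Ms4a1, which encodes CD20 (−2.01, SE 0.48, adjusted p = 0.0148, edgeR), 2 of 13 where 1.53% of all tested genes were called, and both calls were lost with limma. With a mouse left out, this call held in 9 of 10 fits for Tnfrsf13c and in 5 of 10 for Ms4a1. After venetoclax Cd22, an inhibitory receptor of B cells, fell over the mean of 3 days (−0.80, SE 0.23, adjusted p = 0.0476, edgeR), a call lost under 8 of 13 alternatives, limma and DESeq2 among them, and in 9 of 15 fits that left out a mouse. Of 4 plasma cell markers 0 were called in any comparison of a drug with its vehicle.

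The vehicle groups gave the members' levels without drug. Over the 6 vehicle groups against the untreated mice, edgeR called 0 of the 8 members, where 0.0% of tested genes were called, with log2 fold changes from −0.23 in Btk to 0.36 in Cd79b. Between the 2 vehicles over the mean of 3 days 0 of 8 were called as well, where 0.0% were, with values from −0.06 in Btk to 0.47 in Cd79a. No member had an unadjusted p under 0.05 in either, where 11.5% and 2.75% of tested genes did, and limma and DESeq2 called 0. The interval for Cd79b against untreated mice, −0.29 to 1.01, was wide, as its untreated mice were.

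Across lanes, after the mean of each run was taken out, Rag1 moved most with Cd79a (Pearson r = 0.69) and with Pax5 (r = 0.69), and Cd79b with Blnk (r = 0.67), over 33 lanes that share runs and depth. Igll1 stood apart from the signalling genes, at r = 0.36 with Pax5, 0.31 with Rag1, 0.17 with Blnk, 0.04 with Blk, −0.12 with Btk and −0.13 with Cd79b. The 5 genes outside the members that were most like Igll1 among 353 genes with a mean of at least 20 normalised counts were Oas2 (r = 0.45), Dpp4 (0.44), H2-M3 (0.44), Psmb8 (0.42) and Ifi27 (0.42). Of these 5, 3 stayed among the 5 most alike with Spearman's correlation and 3 without the 2 shallow lanes. Pax5 was at rank 10 and Rag1 at rank 19 in that order, at ranks 30 and 41 with Spearman's correlation, and at ranks 14 and 27 without the 2 shallow lanes.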

How the data were processed

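The authors deposited raw barcode counts, 1 nCounter lane per mouse, without normalisation; the nCounter Advanced Analysis 2.0.115 named in the submitters' processing notes was not applied to them. The labels name a mouse immunology panel and the methods the PanCancer Immune Profiling panel. Lanes were grouped by the deposited labels, and none was left out. Lane factors came from the geometric mean over 11 housekeeping probes, those of 20 that passed background in every lane. Genes above background in at least 2 lanes (655 of 750) were tested in 1 model of 13 groups with edgeR 4.0.16 (quasi-likelihood test, R 4.3.3), with Benjamini-Hochberg adjustment over all 655 and a threshold of 0.05. Intervals use Student's distribution with 20 residual degrees of freedom. The biological coefficient of variation was 20.2%, and groups of 2 or 3 mice limit the precision. The mean of 3 days weighs each day's log2 fold change equally. limma 3.58.1 on log2(normalised count + 1) and DESeq2 1.42.0 were alternatives. The test was checked on simulated counts.

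The members, the gene lists and the comparisons were chosen with earlier results of these data known. Genes named are the 9 members, list genes past the threshold and the 5 genes most like Igll1; Jak1, Jak3, Syk and Lyn were named after their values were seen, and some list genes past the threshold are not reported here. The file headers of the day-3 run read day 2, and the labels were followed.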

Additional observations from a re-analysis of the deposited data

Results flagged for a closer look

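In 5 results every mouse of one group moved one way and every mouse of the other the opposite way, and groups of 2 or 3 mice were too small to test for a mouse far from the others. On day 1 all venetoclax mice were below and all ruxolitinib mice above their vehicle mice in Cd79b, and the 2 effects differed by −1.64 (SE 0.58) on the log2 scale (adjusted p = 0.143, edgeR). On day 3 all venetoclax mice were above and all ruxolitinib mice below in Igll1, a difference of 2.54, and on day 7 the order was turned, a difference of −1.85; both were known when the gene was chosen and carry no test. After ruxolitinib, the effect on day 7 minus that on day 1 was 1.29 (SE 0.42, adjusted p = 0.139, edgeR) in Igll1, from below vehicle to above it, and −1.73 (SE 0.54, adjusted p = 0.121, edgeR) in Cd79b, from above to below. None of the 3 tested differences passed the threshold. Day and run cannot be told apart in the last 2.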

How the results depend on the processing

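The fall of Rag1 after ruxolitinib over the mean of 3 days was called under 10 of 13 alternatives and without any 1 of the 15 mice (adjusted p from 0.00204 to 0.0372, edgeR), with log2 fold changes from −1.50 to −0.89 over the alternatives. That of Pax5 was called under 7 of 13 and in 4 of 15 fits that left out a mouse (adjusted p from 0.0171 to 0.112, edgeR). The count of members called there, 2 of 7, was 1 under total count, all housekeeping probes and the replicate block, 0 with limma, limma after background subtraction or untreated mice as control, and 1 to 2 with a mouse left out. In the ruxolitinib comparison of day 1 the count of 0 of 8 became 1, Igll1, under TMM, all housekeeping probes, both vehicles as control or DESeq2 (adjusted p from 0.0227 to 0.0368), and 3 in a fit of only the groups compared. On day 3 it became 2, Rag1 and Pax5, with both vehicles as control. The 3 untreated mice come 1 from each run, so as control they set the lanes of a day mostly against other runs. With them the count became 4 on day 7, and 1, Cd79b, on day 7 after venetoclax, although the untreated mouse of that run, at 47.2 for Pax5 and 222.5 for Cd79b, lay within the ruxolitinib mice in Pax5 (43.1 to 71.4) and just below the venetoclax mice in Cd79b (237.0 to 375.3). For the difference between drugs the count of members called became 3 on day 1 in a fit of only the groups compared, 0 to 1 on day 3 and 0 to 1 on day 7 with a mouse left out (Rag1 at 2.23 without day-3 venetoclax mouse 3, adjusted p = 0.0126, and Cd79a at 2.85 without day-7 venetoclax mouse 3, adjusted p = 0.0215, edgeR), and 1, Cd79a, on day 7 under the replicate block. The ruxolitinib effect on day 7 minus day 1 gave 1 under all housekeeping probes and 2 in a fit of only the groups compared. With the same control 2 of the values given turned sign, Pax5 on day 1 after ruxolitinib to 0.11 and Cd79b on day 7 to 0.14, while the untreated mouse of the same run lay above the mean of the ruxolitinib mice in both. The cause of these changes was not tested. Of 120 log2 fold changes, 8 members in 15 comparisons, 38 changed sign under at least 1 alternative, the furthest from 0 at 0.99 in absolute size. The median log2 fold change of all genes on day 1 was 0.13 after ruxolitinib, and 0.25 when scaled by total count, and −0.02 after venetoclax, and −0.14 by total count; on day 7 after ruxolitinib it was 0.02, and −0.11 by total count. Whether the replicate numbers that groups share pair the mice could not be settled. Over 12 pairs the correlation of their deviations ran from −0.35 to 0.30, and 4 were over 0.1. With 2 mice in a vehicle group, their deviations from its mean are mirror images, so these pairs are not independent. Depth limits Rag1, Cd79a, Blnk and Blk, whose lowest counts were 3, 1, 1 and 2.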
